A study of Homo sapiens with 6 samples.

Results

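AZIN1 encodes antizyme inhibitor 1, a regulator of the polyamine pathway, and it is described here as 1 of the 219 rows of a table of normalized read counts from MDA-MB-231 cells that carried either a control hairpin or one against RESF1. The row was found by its symbol, which 44 of the rows carry, and the other 175 rows carry a transcript ID. Some transcript-ID rows repeat the 6 values of a symbol, as happens for 21 other symbols, but 0 rows repeat those of AZIN1. Leaving such copies out, 198 distinct rows remained. The gene was selected on its difference in normalized read count between the 3 knockdown and the 3 shControl libraries, so its values are given as a description and without a test.

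MDA-MB-231 is a widely used line of human breast cancer cells without estrogen receptor, spelled MBA-MD-231 in the labels. The cells carried either a scramble control hairpin (shControl, 3 libraries, labelled wildtype) or a short hairpin RNA against RESF1 (knockdown, 3 libraries). All cells were transduced with lentivirus and selected with 10 µg/ml puromycin, and RNA was collected 24 hours after seeding in triplicate. Nothing in the labels says that the libraries of a group came from separate transductions, so their spread may be that between dishes. The values are the authors' median-ratio normalized read counts for a listed set of rows. The read depth behind them is unknown.

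Polyamines (putrescine, spermidine and spermine) are small cations that bind RNA and DNA and that growing cells need in quantity. Ornithine decarboxylase, ODC1, makes putrescine, and antizymes bind ODC1 and send it to the proteasome when polyamines are plentiful. AZIN1 resembles ODC1 but has no decarboxylase activity. It binds antizymes more tightly than ODC1 does and so releases the active enzyme. Its mRNA is also known as a target of adenosine-to-inosine editing in tumours, which read counts per row do not show.

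The hairpin is shown because the knockdown columns are headed with its name, G5, which is 1 of the 2 RESF1 hairpins named in the labels. Its target sequence is printed 5′ to 3′ in lower case.

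sh-RESF1 G5: gatggatttgagatgctacaa

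These 21 bases lie on chromosome 12 (GRCh38, chr12:31992419-31992439, plus strand), in the coding part of exon 6 of the 6 exons of the MANE Select transcript of RESF1. The longest run of these bases found in any of the 17 annotated AZIN1 transcripts was 8 bases, against 5 to 10 bases for the 36 other symbols of the table with annotated transcripts. Whether the hairpin acts on transcripts other than those of RESF1 was not tested. No row is named RESF1, so the depletion itself was not checked. Of 10 markers chosen to check the cell line, among them VIM, CD44, ESR1 and EPCAM, 0 are named in the table, so the identity of the line was not checked either.

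AZIN1 was higher in every knockdown library than in every shControl library. Its normalized read count was 187.9 in the shControl library in column 1, 163.7 in column 2 and 204.3 in column 3. In the knockdown libraries it was 278.7 in column 4, 318.4 in column 5 and 318.3 in column 6. The groups thus do not overlap, the shControl library in column 2 is the lowest of the 6, and the knockdown libraries in columns 5 and 6 are almost equal. All 219 rows of the table are separated by group in this way (100%), and 54.8% of them are higher in knockdown. The lack of overlap is therefore a property of the list and not particular to AZIN1. In RNA from whole cultures, more cells with AZIN1 mRNA and more of it per cell cannot be told apart.

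The shControl libraries averaged 185 ± 20.4 (SD, n = 3) and the knockdown libraries 305 ± 22.9 (SD, n = 3), which is 1.65-fold higher. On the log2(value + 1) scale the difference was 0.72 (SE 0.10, limma fit over all 219 rows). Each knockdown library exceeded each shControl library by between 1.36-fold and 1.94-fold over the 9 pairs, with a median of 1.69-fold. The distance from the highest shControl to the lowest knockdown value was 74.4. This gap is wider than the range within shControl, 40.5, and the range within knockdown, 39.7. A gap wider than both ranges was seen in 55.6% of the distinct rows and in 28 of the 44 symbol-named rows (63.6%).

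**Figure D1:**
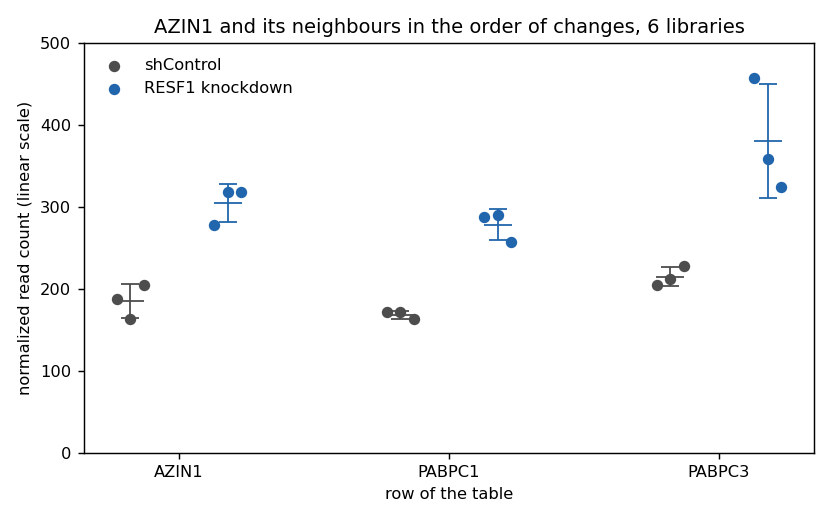
Normalized read counts (y axis, linear, from 0) of AZIN1, PABPC1 and PABPC3 in 3 shControl (grey) and 3 RESF1 knockdown libraries (blue); points are libraries, and bars give the mean ± SD. AZIN1 lies between 163.7 and 204.3 in shControl and between 278.7 and 318.4 in knockdown.

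The libraries of AZIN1 agreed less closely within shControl than those of most named rows. Its coefficient of variation was 11% in shControl, where 6 of the 44 symbol-named rows were more variable and the median was 4.84%. In knockdown it was 7.51%, with 15 rows more variable and a median of 5.81%. The row is also among the less abundant ones named by a symbol. Its mean over the 6 libraries, 245, was the 33rd highest of 44, in a range from 83.8 to 778159. Among the distinct rows 140 had a higher mean. The SE of the AZIN1 log2 difference, 0.10, was near the median of 0.098 over 52 other distinct rows within 1.5-fold of its mean. These SEs are limma's moderated ones, which draw each row's variance toward a common value. Their closeness is therefore partly set by the method and does not show that the spread of AZIN1 was typical.

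By annotation AZIN1 (ENSG00000155096.15) is a protein-coding gene on the minus strand of chromosome 8 (GRCh38, positions 102826111 to 102893864). GENCODE 44 lists 17 transcripts, 13 of them protein-coding, and the MANE Select transcript has 12 exons and encodes 448 amino acids. The authors counted on another build, so these positions describe the gene and not the counted interval. Whether the row sums all AZIN1 transcripts or holds 1 of them is not given in the sources used here.

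Other annotated genes overlap the AZIN1 locus. There are 4 of them, of which 3 long non-coding RNAs, MAILR among them, lie on the opposite strand and 1 protein-coding gene model lies on the same strand. None of the 4 is named in the table. The library kit keeps the strand of the RNA, but whether the counting used it is not stated, so reads of overlapping genes could be included in the AZIN1 row.

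Among the symbol-named rows AZIN1 had the second largest increase. Of the 44 rows, 20 were higher in knockdown (45.5%) and 24 were lower. The increase of AZIN1 lay above the median of the 20 higher rows, 0.51 on the log2 scale, whose lowest value was 0.20. By size in either direction AZIN1 was the 9th of 44, since most of the larger differences were decreases. The largest decrease was that of RYR2, a calcium release channel of heart muscle, at -2.35 (SE 0.20). RYR2 was a low row, with a mean of 90.1, the 43rd highest of 44, and knockdown values from 25.4 to 34.3. Among the 20 symbols annotated as protein-coding, 11 were higher in knockdown, and AZIN1 was again the second of these.

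The row above AZIN1 in this order was PABPC3 and the rows below it were PABPC1 and CROCCP4. PABPC3 and PABPC1 encode poly(A)-binding proteins, which coat the tails of mRNAs. PABPC3 had a log2 difference of 0.81 (SE 0.13), and its knockdown values spread from 324.2 to 458.2. PABPC1 had 0.72 (SE 0.068), the same as AZIN1 to 2 decimals, with tighter shControl values, from 163.1 to 171.8. The pseudogene CROCCP4 had 0.66 (SE 0.16). PABPC1 and PABPC3 are similar in sequence, so the division of reads between them is uncertain.

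**Figure D2:**
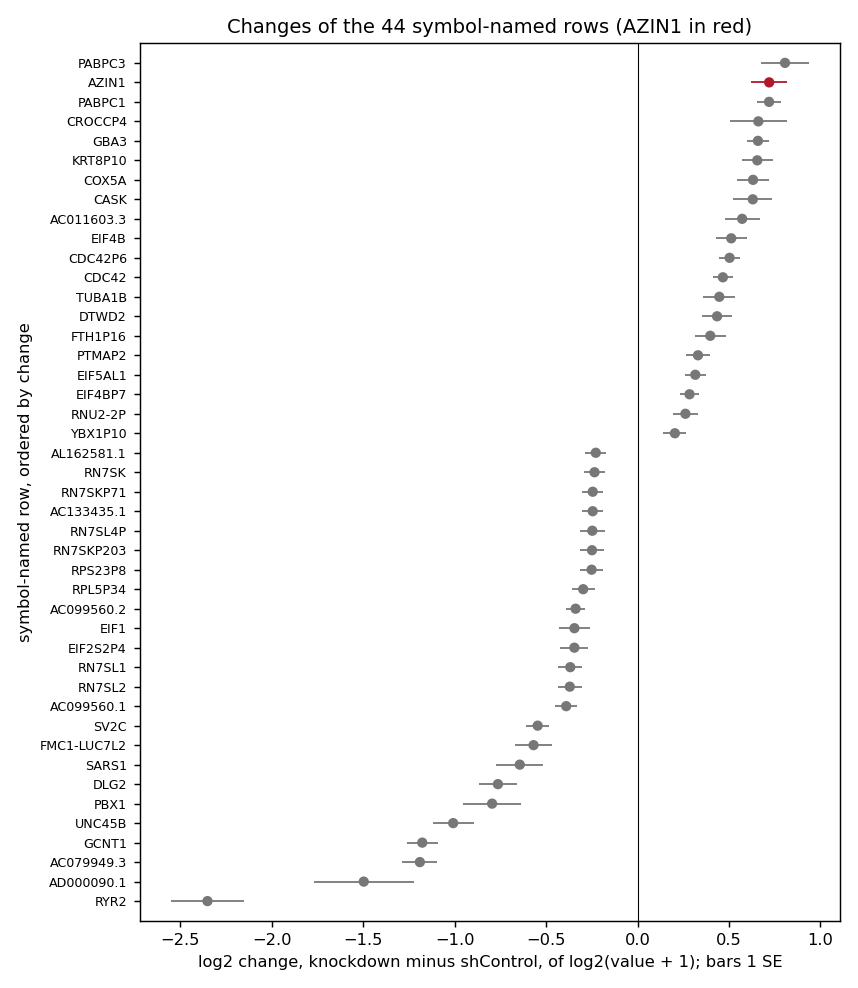
Log2 difference between knockdown and shControl of log2(value + 1) (x axis) for each of the 44 symbol-named rows, ordered by size from the largest increase; points are estimates and bars 1 SE. AZIN1 (red, 0.72) is second from the top, within 1 SE of PABPC3 (0.81) and PABPC1 (0.72).

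The position next to PABPC1 and PABPC3 is not resolved by these libraries. The ratio of AZIN1 to another row in the same library does not depend on how the library was scaled. For AZIN1 to PABPC1 the shControl libraries had a ratio of 1.10 ± 0.15 (SD, n = 3) and the knockdown libraries one of 1.10 ± 0.13 (SD, n = 3), with overlapping groups. For AZIN1 to PABPC3 the ratio was 0.86 ± 0.080 (SD, n = 3) without and 0.83 ± 0.19 (SD, n = 3) with the knockdown, also with overlap. Among the 19 other rows that were higher in knockdown, the ratio overlapped between groups for 12, including the 9 with the largest increases. Its groups did not overlap for the remaining 7, where AZIN1 was relatively higher in knockdown: CDC42P6, DTWD2, PTMAP2, EIF5AL1, EIF4BP7, RNU2-2P and YBX1P10. Over all 190 pairs of the 20 higher rows, such a ratio did not overlap in 40%.

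Leaving out 1 library moved AZIN1 within this order. Without the shControl library in column 2, where AZIN1 was lowest, its log2 difference was 0.63 and 5 named rows had a larger increase. Without the knockdown library in column 5 the difference was 0.69, again with 5 rows above it. Without the knockdown library in column 6 there were 2 rows above it, and without the one in column 4 there were 0. The sign was the same in all 6 fits, which the separation of the groups fixes for every row of the list.

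The differences over the whole list were not centred on 0. The median log2 difference over all 219 rows was 0.25, so AZIN1 lay 0.47 above it. Over the 198 distinct rows the median was 0.28, and over the 44 symbol-named rows it was -0.24. The median thus depends on which listed rows are counted. When the libraries were rescaled by the median ratio over the listed rows, the median over all 219 rows became 0.06. AZIN1 then had a log2 difference of 0.53. Its distance from that median, 0.47, is unchanged by construction, since all rows shift nearly alike. By size AZIN1 was then the 18th of 44.

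Rows with a level like that of AZIN1 showed what sizes the list holds at this abundance. Within 1.5-fold of its mean there were 52 other distinct rows, 35 higher and 17 lower in knockdown. The smallest difference among them was 0.39 in size on the log2 scale and the median 0.60, so smaller differences are not in the list at this level. AZIN1, at 0.72, was exceeded by 11 of the 35 higher rows. Over all distinct rows, 28 of the 111 higher rows had a larger increase than AZIN1.

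**Figure D3:**
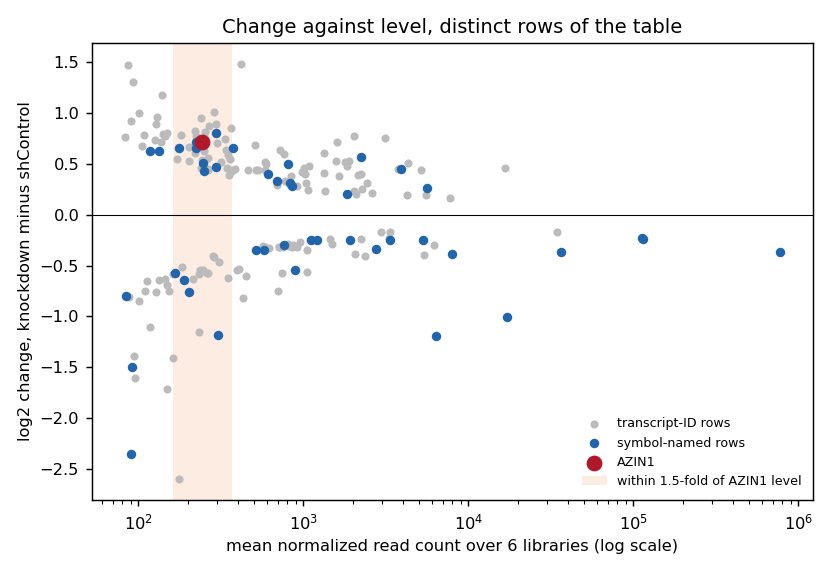
Log2 difference between knockdown and shControl (y axis) against the mean normalized read count over 6 libraries (x axis, log scale) for 198 distinct rows, with AZIN1 in red, other symbol-named rows in blue, transcript-ID rows in grey and the levels within 1.5-fold of AZIN1 shaded. AZIN1 (245, 0.72) lies among the 35 higher rows of the shaded band, and rows near 0 are missing from it.

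The 3 symbol-named rows closest to AZIN1 in level were EIF4B, DTWD2 and KRT8P10. EIF4B, a translation initiation factor, had a mean of 247 and a log2 difference of 0.51 (SE 0.085). DTWD2, an enzyme that modifies tRNA, had 249.5 and 0.43 (SE 0.080). The processed keratin pseudogene KRT8P10 had 224 and 0.65 (SE 0.084), and reads of its parent gene could be counted in its row. All 3 were higher in knockdown, each by less than AZIN1. The list also holds EIF4BP7, a processed pseudogene of EIF4B, and PTMAP2, whose position falls within that of DTWD2 on the opposite strand. Reads may thus be shared between EIF4B and EIF4BP7 and, if the counting ignored strand, between DTWD2 and PTMAP2.

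The pattern over the libraries was compared by the root mean square difference of the log2(value + 1) values, each row centred on its own mean. The closest of the 43 other symbol-named rows was KRT8P10, with a difference of 0.10 and a Pearson r of 0.97 over 6 libraries. It was followed by GBA3, a cytosolic glucosidase gene (0.13, r 0.94), by CDC42P6 (0.14, r 0.98), by PABPC1 (0.15, r 0.92) and by CDC42, a small GTPase of cell polarity (0.17, r 0.94). The median over the other 19 higher rows was 0.20. CDC42P6 is a processed pseudogene of CDC42, so these rows may share reads. Its position falls within that of GBA3 on the opposite strand, so it may share reads with GBA3 if the counting ignored strand. Reads of a parent gene could likewise be counted in the KRT8P10 row. These r values are set mainly by the separation of the groups that all rows of the list share. With each group centred on its own mean, only CDC42P6 remained among the 5 closest rows. Over all 197 other distinct rows, 4 transcript-ID rows were closer to AZIN1 than KRT8P10 was, down to 0.063.

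**Figure D4:**
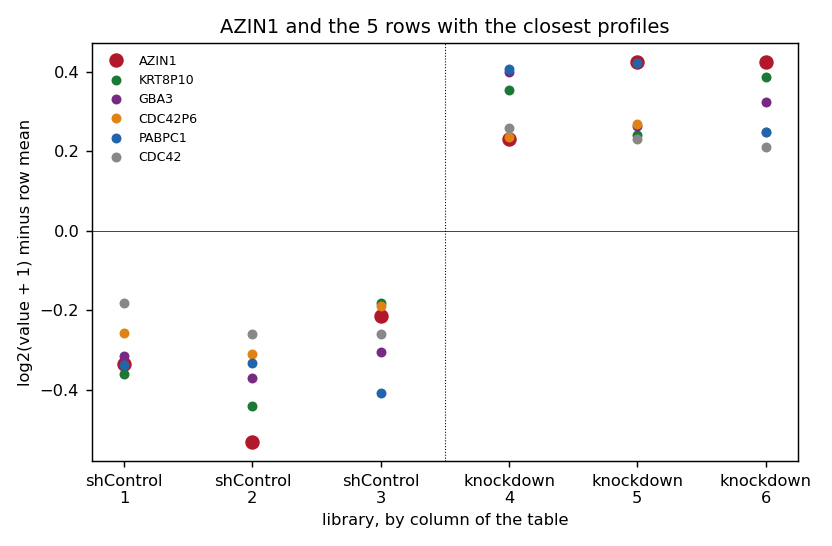
Log2(value + 1) minus the row's mean (y axis) in the 6 libraries (x axis, by column of the table) for AZIN1 (red, large points) and the 5 symbol-named rows with the closest profiles. All 6 rows are below 0 in the 3 shControl libraries and above 0 in the 3 knockdown libraries, and the order of the libraries within a group differs between rows.

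KRT8P10 and PABPC1 differed in part from AZIN1 in which libraries were high. KRT8P10 was 169.5, 160.4 and 192.1 in the shControl libraries and 278.9, 257.6 and 285.4 in the knockdown libraries, in column order. KRT8P10 and AZIN1 share the order of the shControl values, lowest in column 2 and highest in column 3. The lowest knockdown value of KRT8P10 is in column 5 and that of AZIN1 in column 4. AZIN1 was almost equal in columns 5 and 6, and KRT8P10 was highest in column 6. PABPC1 was 171.3, 171.8 and 163.1 in shControl and 287.7, 290.8 and 257.5 in knockdown. Its lowest shControl value is in column 3, where that of AZIN1 is highest, and its lowest knockdown value is in column 6.

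PABPC1 is also the only other symbol-named row with an annotated position on chromosome 8. Its gene lies on the same chromosome at positions 100685816 to 100722809 (GRCh38), 2.10 Mb from AZIN1. Both genes were higher in knockdown, by 1.65-fold each, as were 45.5% of the 44 symbol-named rows in every knockdown library. Whether their position has a part in this was not tested.

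The rest of the polyamine pathway cannot be set beside AZIN1. Of 26 other genes of polyamine synthesis, breakdown, transport and use, among them ODC1, the antizymes OAZ1 and OAZ2, AZIN2, AMD1, SRM, SMS and SAT1, 0 are named in the table. The 2 editing enzymes on the list, ADAR and ADARB1, are not named either. Members among the transcript-ID rows would not be recognised, and absence from a selected list says nothing about a gene's level. EIF5AL1, singled out after its values were seen, is a copy of EIF5A, the translation factor that carries the spermidine-derived residue hypusine. Its shControl libraries averaged 744 ± 19.97 (SD, n = 3) and its knockdown libraries 926 ± 38.3 (SD, n = 3), a log2 difference of 0.32 (SE 0.058). Its increase was smaller than that of AZIN1, and the ratio of AZIN1 to EIF5AL1 went from 0.25 ± 0.022 (SD, n = 3) without to 0.33 ± 0.027 (SD, n = 3) with the knockdown, without overlap of the groups. Such ratios did not overlap in 40% of the 190 pairs of higher symbol-named rows. Reads of EIF5A itself could be counted in the EIF5AL1 row, so its values are uncertain.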

How the data were processed

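Total RNA libraries from 3 shControl and 3 RESF1 knockdown cultures were grouped by sample title, and each column of the table was assigned to a group only, since its running number is not a replicate number. Per the labels and methods, the authors used Partek Flow for alignment (STAR 2.7.8a, telomere-to-telomere human genome), median-ratio normalization and DESeq2. The counting tool and annotation are not given in the sources used here. The deposited values are a signal, normalized read counts that are not whole reads, so no count model was run and no counting interval is given.

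Differences were estimated with limma 3.58.1 (R 4.3.3) on log2(value + 1) over all 219 rows, without covariates. The SEs of log2 differences are moderated, with each row's variance drawn toward a value fitted over the listed rows. The fit was tested on simulated data. Fold changes on this scale slightly understate those of low rows. Symbols were looked up in GENCODE 44 (37 of 44 matched). The named rows are the neighbours of AZIN1 in order of change, level and pattern, those on its chromosome, the extremes and a polyamine list. The gene, lists and comparisons were chosen with earlier results of these data known. The rule to count transcript IDs near a copy of AZIN1 had nothing to apply to. Alternatives were other pseudocounts, a mean filter, identical rows counted once, rescaled libraries and the removal of each library.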

Additional observations from a re-analysis of the deposited data

How the results depend on the processing

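Except under the rescaling, the separation of the groups fixes the sign of every row in advance. The log2 difference of AZIN1 kept its sign under all alternatives run. It was 0.72 and 0.69 with pseudocounts of 0.1 and 10, between 0.63 and 0.79 when 1 library was left out, and 0.53 after the libraries were rescaled on the listed rows, which moves it by construction. Its place by size among the 44 named rows was 9 as reported, 18 after the rescaling and 7 to 13 with 1 library left out, and the number of named rows with a larger increase ran from 0 to 5 over those fits. Of the 5 rows closest in pattern, 5 stayed with a pseudocount of 10 or the rescaling and 1 stayed when groups were centred separately. The cause was not tested.

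No paired analysis was possible because the column headings number the libraries from 1 to 6 without the replicate numbers of the titles. DESeq2 and edgeR were planned only for whole read counts and so were not used. The table lists only rows already separated by group, so these ranges do not describe the chance of finding such a row.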
